A study of Felis catus with 77 samples.

Results

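Feline fibrosarcoma (FSA) was compared with the adipose tissue (AT) of the same cat in the 16 cases for which both a tumor (T) and an AT library were at hand, namely cases 5, 6, 10, 12, 13, 15, 16, 17, 18, 19, 23, 26, 27, 28, 29 and 31. This gave 32 of the 77 libraries of the series, chosen by title alone. All tissue came from client-owned domestic cats (European Shorthair, with a Maine Coon as case 18 and a Persian mix as case 23) whose tumors had been removed by surgery, and the labels name no treatment beyond fixation. The study lists the age and sex of each cat, which were not used here. Each tissue was cut from formalin-fixed, paraffin-embedded sections by laser-capture microdissection (LCM), in which a pathologist marks areas that are then lifted off with a laser. Each library was therefore a mix of the cells within the marked areas of a single cat. In such bulk samples, fewer cells of a type and less RNA per cell cannot be told apart. The AT library of case 5 carries a tumor tissue label, but its title names adipose tissue and the cat has another library titled as tumor, so it was taken as AT.

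FSA is a malignant tumor of spindle-shaped mesenchymal cells that lay down collagen-rich matrix and grow into the tissue around them. Subcutaneous adipose tissue is one of the tissues it grows into, and consists of adipocytes that store triglyceride, held in a stroma of fibroblasts, vessels and immune cells. Adipocytes are mostly lipid and give little RNA per area. The comparison asked which transcripts separate tumor from the adipose tissue next to it, how large each difference was within a cat, and in how many cats it was seen. The files name genes by Ensembl identifiers only, and none of the 19587 was found in the reference table used here to assign symbols. The adipocyte, fibroblast, vessel, immune and muscle markers chosen for this comparison could therefore not be looked up. Genes are therefore described as groups, and 4 are given by identifier.

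The total counts were 1875842 to 14308253 in T and 1047617 to 7287267 in AT. The T library was the deeper in 15 of the 16 pairs, with a median of 2.36 times the counts of its AT partner, so a gene without a count in AT can still have been expressed there at a low level. The T libraries of cases 12, 13, 15, 16 and 17 stood apart in the number of genes detected, and their AT libraries did so with an overlap. At least 1 count was seen for 15797 to 19092 genes in their T libraries and 15761 to 17920 in their AT libraries, against 13228 to 15300 and 11569 to 16161 in the other 11 cases. The AT library of case 5, with the doubtful label, had the 16161 genes and lay above the AT libraries of cases 12 (16077) and 15 (15761). Results are given with and without these 5 cases where they moved. CPM denotes counts scaled to a common library size. Across 12704 genes, which are not independent replicates, the log2 CPM of the case 5 AT library had a correlation of 0.906 with the average of the remaining AT libraries, against 0.707 with that of the remaining T libraries.

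With the case as a block, 1301 genes were higher in T (10.2% of 12704 tested) and 1520 were lower (12%), which together was 22.2%. These genes passed edgeR's quasi-likelihood test at a Benjamini-Hochberg adjusted p-value of 0.05, with a log2 of the fold change, log2(FC), of more than 1 in size. The median log2(FC) of the higher genes was 1.95, with the middle 50% of them between 1.36 and 2.89. For the lower genes the median was -2.07, and the middle 50% lay between -3.17 and -1.45. Differences of more than 16-fold, a log2(FC) beyond 4, were seen for 103 higher and 208 lower genes. The largest log2(FC) among them were 7.80 and -12.47. Without a limit on the log2(FC), 4565 genes (35.9%) passed, of which 2312 were higher and 2253 lower. Which direction held more calls depended on the processing. DESeq2 called 1732 higher and 1687 lower genes of the same 12704. The fit without the low-count filter called 1610 and 1463 of 19483 tested. With cases 5, 10, 12 or 19 left out in turn the higher genes also outnumbered the lower. The 5 cases that stood apart gave 421 higher and 605 lower genes of 15201 tested when fitted alone. The other 11 cases gave 1258 and 1347 of 12132 tested. No gene called in either direction was called in the opposite direction under any alternative that was run.

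To describe consistency, the log2 CPM of AT was subtracted from that of T within each case, after normalization by the trimmed mean of M values (TMM) and with a prior count of 2. In 16 of 16 cases the difference was above 0 for 370 genes (2.91% of those tested) and below 0 for 587 (4.62%). A further 966 genes were split evenly, with T above AT in 8 cases and below it in 8. Among the called genes, 310 of the 1301 higher genes (23.8%) and 550 of the 1520 lower genes (36.2%) had their direction in all 16 cases. Another 342 and 387 had it in 15 cases, and 332 and 278 in 14. The remaining 317 higher and 305 lower genes were called although at least 3 cats did not show the direction, and the lowest number of cats for any called gene was 10. The count of genes lower in T in all cases exceeded the count of higher genes also after thinning each pair to equal totals (598 against 334) and without the 5 cases (787 against 678), but not in those 5 cases alone (1331 against 1685). An unbroken direction is easier to reach in fewer cases, and these settings tested different numbers of genes, so the counts are not comparable between them.

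**Figure D1:**
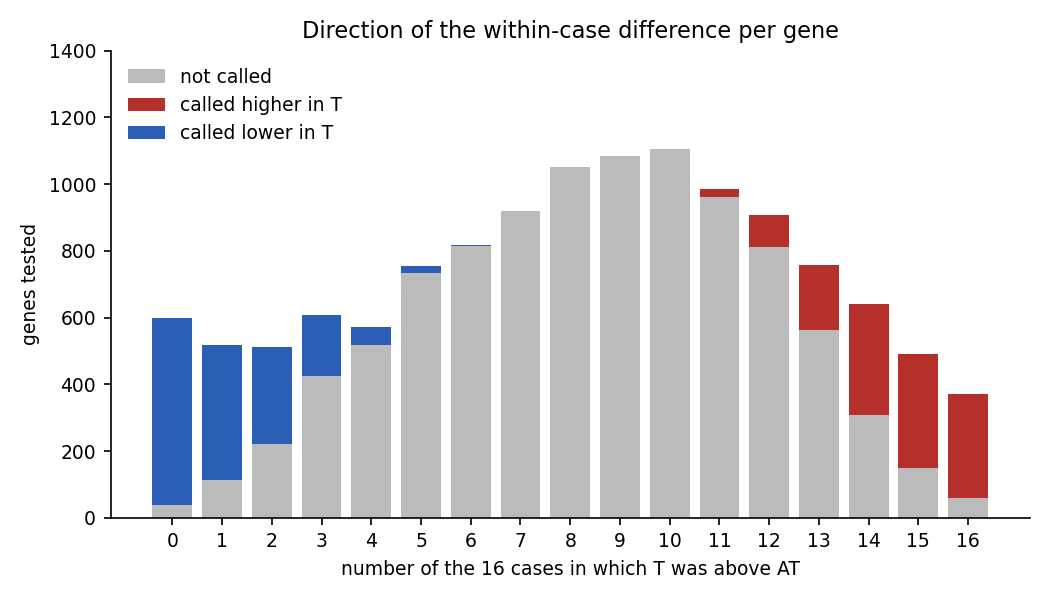
Number of genes tested (vertical axis) by the number of the 16 cases in which T was above AT (horizontal axis), with bars divided into genes called higher in T, called lower in T and not called. Genes called lower fill most of the bar at 0 cases and genes called higher most of the bar at 16, while 10 was the lowest number of cases that shared the direction of a called gene.

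A single cat could still go against a call. Of the 1301 higher genes, 475 had at least 1 case in which AT exceeded T by more than 2-fold, and of the 1520 lower genes 425 had a case with the reverse. On the other hand, 51 higher genes were more than 2-fold higher in every case, and 155 lower genes more than 2-fold lower in every case. More than 4-fold in every case was seen for 2 higher and 52 lower genes. Among genes that were not called, 812 had a log2(FC) beyond 1. Their median SD between cases was 2.19, and their direction was shared by a median of 11 cases. Conversely, 1744 genes passed the threshold on the adjusted p-value with a log2(FC) within 1, and 97 of these had the same direction in all 16 cases.

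The SD of the within-case difference over the 16 cases had a median of 1.14 on the log2 scale over all genes tested. It was 1.65 for higher genes, 1.46 for lower genes and 1.01 for genes not called. The spread followed the level of the gene. With genes divided by mean log2 CPM into 3 classes of equal size, the median SD was 1.89 in the lowest class, 1.06 in the middle and 0.68 in the highest. Among called genes of the highest class, 41.0% of the higher and 51.6% of the lower genes had their direction in all 16 cases, against 17.4% and 18% in the lowest. With at least 10 counts in all 32 libraries, which 6204 genes had, 104 of 301 higher genes (34.6%) and 303 of 681 lower genes (44.5%) kept their direction in every case. The part of counting error in the spread of low genes was not tested.

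Most called genes varied more between cats in the tissue where they were low. Of the 1301 higher genes, 20.9% had a larger SD between cats in T than in AT, against 40.6% of all genes tested, with a median SD of 0.89 in T and 1.56 in AT. Of the 1520 lower genes, 75.7% had the larger SD in T, with a median of 1.23 in T and 0.83 in AT. Spread was larger at low levels in general, and the share over all genes tested is not matched on level, so these values are a description. In 8 or more of the 16 libraries of the lower tissue, 135 higher genes and 55 lower genes had no count, and no called gene was without a count in all 16. These counts were not thinned, AT was the shallower library in 15 of the 16 pairs, and the same number over all genes tested is not given. The part of depth in these zeros was not tested.

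**Figure D2:**
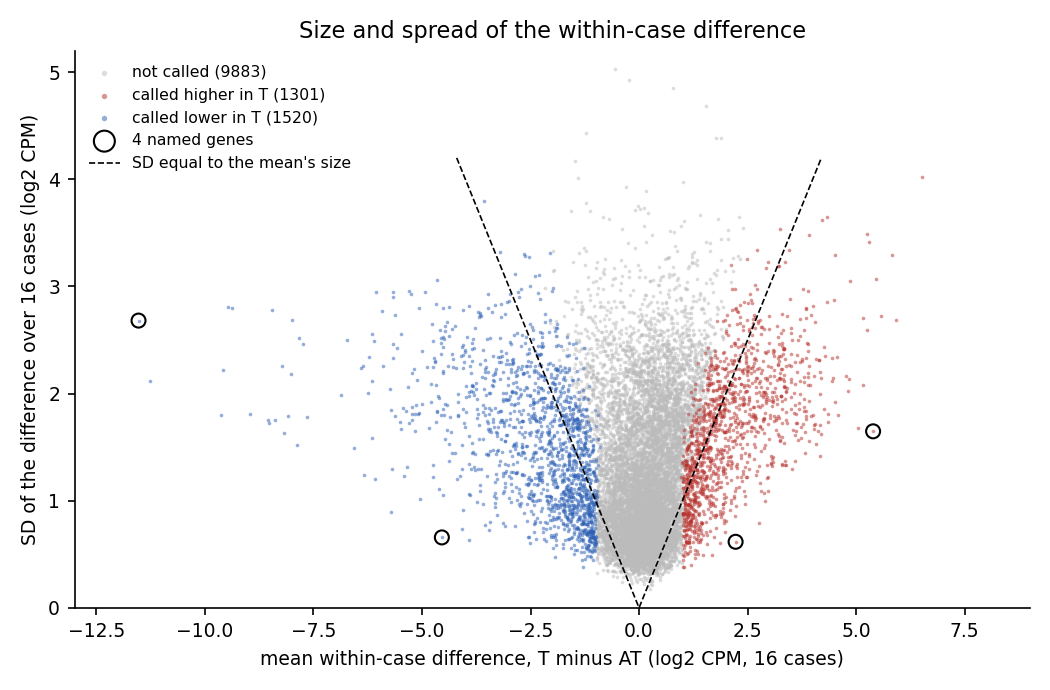
Mean of the within-case difference, T minus AT (horizontal axis, log2 CPM), against its SD over 16 cases (vertical axis, log2 CPM), with 1 point per gene. Points outside the dashed lines have a mean larger than their SD, and the circled gene at the far left is ENSFCAG00000000419, with a mean of -11.5.

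Complete separation of the tissues, whatever the pairing, was less frequent. Every T library was above every AT library for 33 genes (0.260% of those tested), and every T library was below every AT library for 177 genes (1.39%). Of these, 33 were called higher and 176 lower. The numbers were 144 and 322 without the 5 cases, and 145 and 304 without the 4 cases with the shallowest AT libraries (10, 12, 13 and 26). Without case 10 alone 50 genes lay entirely above, and without case 26 alone 51, within a range of 30 to 51 with each case left out in turn. The 5 cases alone gave 424 above and 569 below. Fewer libraries make complete separation easier to reach, and no other set of 4 or 5 cases was left out for comparison.

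The 20 lower genes with the largest log2(FC), all at or beyond -8.35, had the same direction in 16 of 16 cases, and 19 of them separated the tissues completely. Of the 20 higher genes with the largest log2(FC), all at or above 5.23, 10 had the same direction in every case, the fewest cases for any of them was 12, and none separated the tissues completely. Ranked instead by the mean of the within-case difference divided by its SD, the 20 steadiest higher genes had ratios of 2.65 to 3.61 and the 20 steadiest lower genes ratios of 4.41 to 6.91 in size. The log2(FC) of the steadiest higher genes ranged from 1.01 to 6.42 and that of the steadiest lower genes from -12.2 to -3.48. These ranks describe values that also chose the genes.

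By rule, 4 genes are given in full. In each direction these are the called gene with the largest log2(FC) among those with at least 10 counts in every library of the tissue where it was higher and the same direction in 16 cases, and the called gene with the largest ratio of mean to SD among those with at least 10 counts in all 32 libraries. They are extremes of this comparison. No function is given for them, since their symbols are not known here.

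ENSFCAG00000030389 had the largest log2(FC) of the higher genes that met the rule on size. It had 51 to 563 counts in T, with a median of 192, while 10 of the 16 AT libraries had no count and the highest AT library had 32. Its log2 CPM was 3.51 to 6.25 in T and -1.44 to 3.93 in AT, so T was high in every case and only the AT library of case 17 reached into the range of T. The within-case difference was lowest in case 17 (1.74), had a median of 5.51 and was highest in case 18 (7.69). The log2(FC) was 6.42 with a standard error of 0.70 (adjusted p = 5.58e-07 in edgeR's quasi-likelihood test, n = 16 pairs). Most AT libraries were at 0, where the prior count sets the log2 CPM, so the within-case differences depend on it. The log2(FC) varied with the fit and with the cases used. It was 4.70 without the block, 7.25 without the 5 cases and 5.17 in the 5 cases alone. The prior count of 2 does not enter the log2(FC), which comes from the fitted model. The effect of how that model treats counts of 0 was not tested.

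ENSFCAG00000023964 was the steadiest of the higher genes. Its counts were 517 to 5205 in T (median 2072.5) and 53 to 403 in AT (median 174). On the log2 CPM scale T covered 7.10 to 9.26 and AT 5.43 to 6.67, so every T library lay above every AT library. AT varied little between cats, with an SD of 0.32 against 0.68 in T. The difference within a case ranged from 1.04 in case 26 to 3.36 in case 18 with a median of 2.25, and the log2(FC) was 2.23 with a standard error of 0.17 (adjusted p = 2.83e-09 in edgeR's quasi-likelihood test, n = 16 pairs).

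ENSFCAG00000000419 fell most. AT libraries had 2105 to 40511 counts of it with a median of 9245, and T libraries 0 to 67 with a median of 0.5. The T libraries formed separate ranges. In the 11 other cases 8 had no count and the highest had 3, while in cases 12, 13, 15, 16 and 17 the T libraries had 13 to 67 counts, with totals of 1875842 to 7876394 against 5081459 to 14308253 in the 11. The within-case difference was accordingly -14.1 to -12.1 in the 11 cases and -10.4 to -6.32 in the 5, and these ranges did not overlap. The log2(FC) over all 16 cases was -12.47 with a standard error of 1.08 (adjusted p = 2.68e-08 in edgeR's quasi-likelihood test, n = 16 pairs), -15.59 without the 5 cases and -7.87 in the 5 cases alone. In the 8 T libraries at 0 the prior count sets the log2 CPM, so the within-case differences depend on it. The log2(FC) varied with the fit, and was -10.38 without the block and -14.52 with DESeq2. How the prior count affects the log2(FC) was not tested. Whatever sets the libraries of these 5 cats apart was not tested.

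ENSFCAG00000030275 was the steadiest of the lower genes. AT libraries had 77 to 2026 counts of it (median 683) and T libraries 18 to 268 (median 79). The log2 CPM was 5.87 to 9.06 in AT and 1.75 to 4.82 in T, without overlap. Case 26 had the lowest value in both tissues, and the difference within that case was -4.12, close to the median of -4.26. The difference was smallest in case 10 (-3.85) and largest in case 18 (-5.93), with an SD of 0.66, whereas the SD between cats was 0.76 in each tissue. Across the 16 cats its levels in T and AT correlated at 0.626, given as a description. Case 26, with 18 counts in T and 77 in AT, weighs heavily in this value, and no value without it is given here. The log2(FC) was -4.59 with a standard error of 0.19 (adjusted p = 1.58e-12 in edgeR's quasi-likelihood test, n = 16 pairs).

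**Figure D3:**
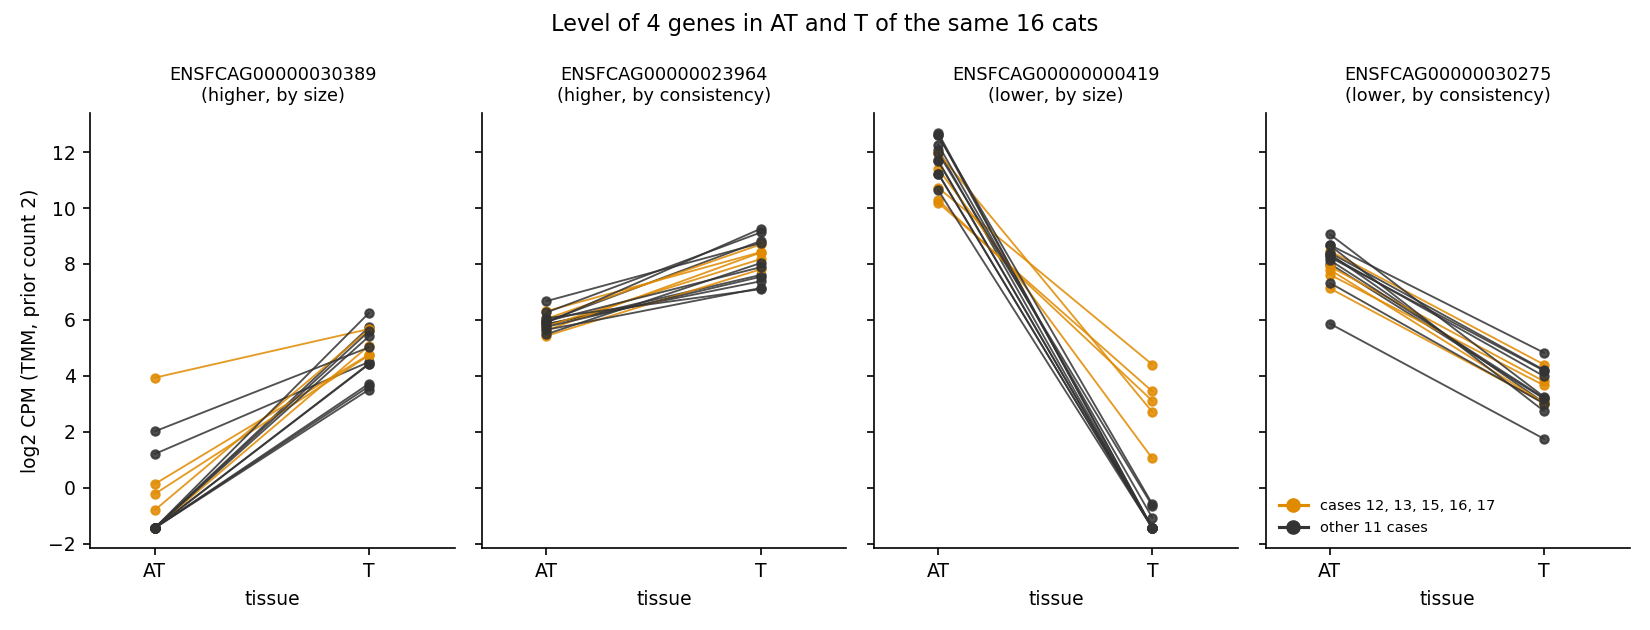
Log2 CPM (vertical axis) of 4 genes in AT and T, with a line joining the libraries of each of the 16 cats and cases 12, 13, 15, 16 and 17 in orange. Lines slope the same way in all 16 cats for each gene, and for ENSFCAG00000000419 the orange T libraries lie above the black ones.

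The same cats also provided 5 libraries of connective tissue (CT) and 10 of skeletal muscle (SM), which were scaled together with T and AT to place the 4 genes. For ENSFCAG00000023964 the median log2 CPM was highest in T (7.83), followed by AT (5.61), CT (5.40) and SM (4.94), and T exceeded the other tissue of the same cat in 5 of 5 cats for CT and 10 of 10 for SM. ENSFCAG00000030389 had a median of 4.56 in T and 3.26 in CT, while AT and SM were both at -1.57, the value of a library without a count. Its CT libraries covered -1.57 to 4.66 and so overlapped T, although T was the higher in each of the 5 cats. ENSFCAG00000000419 had a median of 11.4 in AT, 4.68 in CT, 2.04 in SM and -1.40 in T, and AT was highest in all 5 cats with CT and all 10 with SM. ENSFCAG00000030275 had a median of 7.98 in AT, 4.87 in SM, 3.90 in CT and 3.0 in T. For this gene T lay below CT in 4 of 5 cats, but the mean difference of -0.14 was within its spread (SD 1.72, n = 5), and the CT libraries covered -0.029 to 4.92. T lay below SM in 8 of 10 cats. No test was made on these levels.

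Direction was then examined in cats left out of the fit that called the genes. For each case, the genes were called in a fit of the other 15 cases and their direction was read in the case left out. Genes without a count in either library of that case, or filtered out over all 32 libraries, were not read, which was 0 to 106 genes per case (at most 3.74% of those called, in case 23). On average 88.4% ± 5.6 (SD, n = 16 cases) of the called genes had the same direction in the left-out cat, with 75.8% in case 12 as the lowest and 95.1% in case 15 as the highest. For genes called higher the share ranged from 67.3% in case 12 to 95.0% in case 15, and for genes called lower from 78.2% in case 26 to 95.2% in case 5. In case 5, whose AT library has the conflicting label, 1302 of the 1368 genes read among those called lower, and 1269 of the 1403 among those called higher, went the same way. Thinning each pair to equal totals gave 89.0% on average, and the 11 cases outside the 5 gave 90.2% among themselves.

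**Figure D4:**
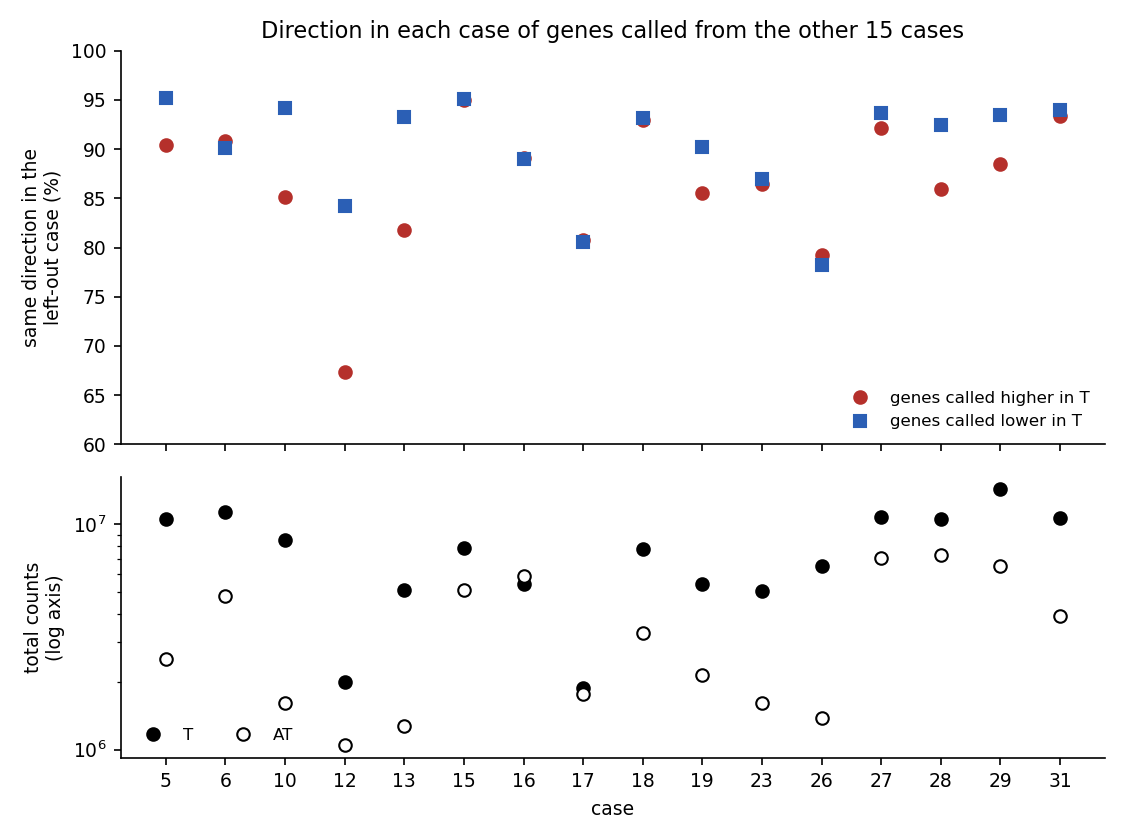
Upper panel, percent of the genes called from the other 15 cases that had the same direction in the left-out case (vertical axis, from 60%) for each case (horizontal axis), for genes called higher and called lower in T. Lower panel, total counts of the T and AT library of that case on a log axis, where case 12, lowest for higher genes at 67.3%, has 1047617 counts in AT.

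Exceptions were unevenly spread over the cats. Of the 729 called genes with their direction in exactly 15 cases, the exception was case 26 for 143, case 12 for 134 and case 17 for 92, which together made 369. Case 15 was the exception for 8. In case 26 the exceptions were 91 lower and 52 higher genes, and in case 12 they were 51 and 83. Most exceptions were small, and 93 of the 342 among higher genes and 86 of the 387 among lower genes went more than 2-fold the other way. The AT libraries of cases 12 and 26 were among the 3 shallowest (1047617 and 1383348 counts), and case 17 had the smallest T total (1875842). Case 13, with 1272742 counts in AT, was the exception for 36. The part of depth in these exceptions was not tested.

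The size of the whole-transcriptome difference also varied from cat to cat. Over all genes tested, the SD of the within-case difference across genes was smallest in case 17 (1.09) and case 16 (1.25) and largest in case 6 (2.38) and case 18 (2.36). Between 26.9% (case 17) and 53.0% (case 18) of the genes differed by more than 2-fold within a case. The profile of differences in a cat correlated with the mean of the other 15 cats at 0.389 in case 12 to 0.779 in case 15, with a median of 0.673, across genes. Among the higher genes, 85.2% had a smaller mean difference in the 5 cases that stood apart than in the other 11, with medians of 1.30 and 2.15. Among the lower genes this share was 77.4%, with medians of -1.54 and -2.12. Over all genes tested it was 59.6%. The called genes were chosen in a fit in which 11 of the 16 pairs were the other cases, so their shares and medians are a description, with nothing read from them about the 5 cases. For 15 higher and 6 lower genes the mean of the 5 cases had the opposite sign.

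The shares of the counts taken by the called genes did not overlap between the tissues. The 1520 lower genes took 16.8% to 27.8% of the counts of each AT library and 4.46% to 10.4% of the counts of each T library. The 1301 higher genes took 11.85% to 29.8% of the counts in T and 2.89% to 9.66% in AT. Case 26 had the highest share of lower genes in T (10.4%), and case 10 the smallest share of higher genes in T (11.85%). These shares describe genes that were chosen on the same libraries, so no test is given.

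**Figure D5:**
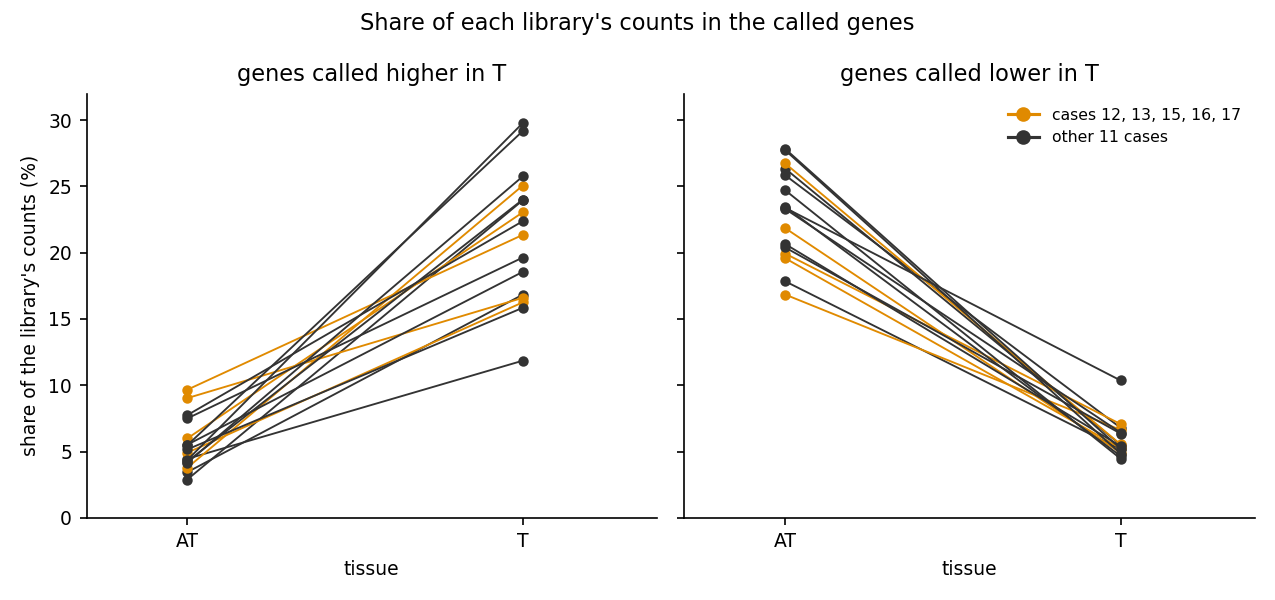
Share of the counts of each library (vertical axis, percent) taken by the genes called higher in T (left) and lower in T (right), with a line joining AT and T of each of the 16 cats and cases 12, 13, 15, 16 and 17 in orange. All 16 lines rise on the left and all 16 fall on the right, and the T library of case 26 is the highest T value on the right at 10.4%.

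Library make-up was compared within cats on 3 measures, chosen after the data were seen, with two-sided exact permutation tests that flip the sign of the difference in each of the 16 pairs. With each pair thinned to equal totals, T libraries showed 870 ± 902 more genes than AT libraries (mean ± SD, n = 16, 14 cases higher in T, exact permutation p = 0.00308, adjusted over the 3 measures 0.00462). The most abundant gene of each library took 1.30% to 7.16% of the counts in T and 1.73% to 13.7% in AT. It was taken in each library separately and need not be the same gene in T and AT. Its share was lower in T in 14 of 16 cases with a mean difference of -2.52 percentage points (SD 2.55, exact permutation p = 3.36e-04, adjusted 0.00101). The 100 most abundant genes of each library together took a median of 27.3% in T and 24.4% in AT. Their share was higher in T in 14 of 16 cases, a difference that did not pass (mean 2.73 ± 5.59, n = 16, exact permutation p = 0.0706).

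The spread was then compared with and without pairing. For 70.6% of the genes tested, the SD of the within-case difference was smaller than that for unpaired T and AT libraries of the same spread, and the median ratio of the SDs was 0.92. T and AT levels of a gene correlated across the 16 cats with a median of 0.168, and with 0.102 in the 11 cases outside the 5, given as a description. It was above 0 for 70.6% of the genes over 16 cases and for 61.5% over the 11. The 70.6% restates the share of genes with the smaller paired SD, since a correlation above 0 is what makes that SD smaller. A correlation of at least 0.8 was seen for 53 of the 12704 genes tested, of which 28 also reached it in the 11 cases, where 92 genes did so in all. The 11 cases are part of the 16, and fewer cases reach a high correlation more easily, so these counts are a description. Without the block 1119 genes were higher and 1367 lower. Of the calls made with the block, 992 higher and 1283 lower genes were also called without it, 309 and 237 were called only with it, and 127 and 84 only without it. The standard error was smaller with the block for 45.4% of the genes, with a median of 0.297 with the block and 0.295 without it.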

How the data were processed

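Counts per Ensembl gene identifier, as whole numbers without normalization, were deposited by the authors for each library. Per the study's methods, reads were trimmed with Trimmomatic and assigned with Kallisto to Felis_catus_9.0, whereas the submitters' processing notes name STAR and featureCounts, and which of these made the files could not be settled. The step decides how reads shared by similar genes are split. RNA from fixed tissue is fragmented, and 10 counts or fewer leave a wide counting error.

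Groups were taken from titles. The 32 libraries were fitted in R 4.3.3 with edgeR 4.0.16 (quasi-likelihood test, TMM, filterByExpr by tissue, case as a fixed block, Benjamini-Hochberg adjustment over 12704 genes), and with DESeq2 1.42.0 and limma 3.58.1 (voom) as alternatives. A call needed an adjusted p-value below 0.05 together with a log2(FC) of more than 1 in size. Standard errors are the log2(FC) divided by the root of F. A case without a count in either library had no direction. Libraries with the same number came from the same cat. Deviations from the tissue means correlated between T and AT of a cat with a median of 0.120 (-0.039 to 0.471, over 0.1 in 10 of 16), against -0.012 between cats. The median was 0.258 in cases 12, 13, 15, 16 and 17 and 0.0973 in the other 11, and T correlated best with the AT of its own cat in 9 of 16 cases. The pairing therefore rests on the cat, not on these values. Scripts were tested on simulated data. No libraries were identical. The comparison, lists, alternatives and the set of 5 cases were chosen with earlier results of these data known. The 4 genes follow a rule on size and consistency given in the report. The reference table (39307 genes, F.catus_Fca126_mat1.0) matched 0 of 19587 identifiers, so markers, gene lists and sequences are not reported.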

Additional observations from a re-analysis of the deposited data

How the results depend on the processing

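Alternatives gave 360 values, of which 20 moved and 340 did not (counts and median SD by less than 1.5 times, other values by less than 1 SD between cases). The log2(FC) of single genes, which have a test, were judged only by direction and threshold, and their sizes could shift by more than 1 SD, as for ENSFCAG00000000419 (-12.47, but -7.87 in the 5 cases named next alone and -15.59 without them) and ENSFCAG00000030389 (6.42, but 4.70 without the block). None reversed. Calls stayed within 1.5 times with DESeq2, the likelihood ratio test, limma-voom, other filters and factors, thinned pairs, and no replicate block (1119 higher and 1367 lower, against 1301 and 1520 with the block), and the block changed the call of none of the 4 genes. The 5 cases 12, 13, 15, 16 and 17 alone gave 421 higher, 605 lower and 1032 genes at an adjusted p-value under 0.05, a median log2(FC) of 0.17 over all genes, 1685 and 1331 genes higher and lower in all cases, and 424 and 569 with T entirely above and below AT, with fewer samples. Without these cases 678 genes were higher in all cases, and 144 and 322 lay entirely above and below. Without the 4 cases with the shallowest AT the numbers were 777, 145 and 304. Fewer cases make an unbroken direction and complete separation easier to reach. The 5 cases alone were also tested on 15201 genes, against 12704 over all 16. The median log2(FC) was 0.10, 0.27 without the low-count filter, which adds genes to the test, and 0.088 to 0.18 with each case left out in turn. Genes with T entirely above AT numbered 30 to 51 with each case left out. Depth limits the genes low in AT, whose shallowest library held 1047617 counts.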
